A study of Mus musculus with 8 samples.

Results

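Collagen chains leave the ribosome as unfinished products, and 10 genes whose proteins finish them were followed here in mouse hepatic stellate cells: the prolyl 4-hydroxylase alpha subunits P4ha1, P4ha2 and P4ha3, the lysyl hydroxylases Plod1, Plod2 and Plod3, the prolyl 3-hydroxylase P3h2, the collagen chaperone Serpinh1, and the procollagen C-proteinase enhancers Pcolce and Pcolce2. They were chosen by function, with earlier results of these data known. Each had exactly 1 probe set with its symbol alone in the platform annotation, so that all 10 were measured among 19938 genes. The reverted group (4 arrays) came from male Balb/c mice given 4 injections of CCl4, a hepatotoxin, at 0.5 µl per g body weight with 2 injections each week, and then left for 45 days. The quiescent group (4 arrays) came from normal male Balb/c mice that received no CCl4. The labels put both groups at 18 weeks in a general statement and the reverted mice at 16 weeks in another. Stellate cells of both groups were enriched by density centrifugation, sorted for the autofluorescence of their stored retinoids and lysed with no culture in between, a gate that takes only cells holding retinoids. Values are log2 RMA values, all changes are reverted minus quiescent, and n = 4 arrays per group throughout. The labels do not say whether an array holds 1 mouse or a pool, so p-values measure the spread between these arrays, which may be technical.

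As background, prolyl 4-hydroxylation in the endoplasmic reticulum is what lets the collagen triple helix hold together at body temperature, and it is done by a tetramer of alpha subunits, which carry the active site, and the beta subunit encoded by P4hb. Lysyl hydroxylation prepares the residues that are later glycosylated or joined into cross-links, with Plod2 acting on the telopeptides that form the stable cross-links of fibrotic tissue. Serpinh1 (HSP47) binds the folded triple helix until it leaves the endoplasmic reticulum, and outside the cell Pcolce speeds removal of the C-terminal propeptide by Bmp1. In the liver, stellate cells are the main makers of fibrillar collagen, and they raise this machinery when they turn into myofibroblasts. P4ha1, P4ha2 and Plod2 are also known targets of the hypoxia-inducible factors.

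The promoters of the 3 prolyl 4-hydroxylase alpha subunit genes are shown because these paralogues share 1 reaction but the signs of their mean changes differed. None of the 3 was called changed, and an unequal change of these paralogues was not shown. Each run is the 250 bases before the gene's start, 5′ to 3′ on the gene's strand, from RefSeq on GRCm38.p6, and capitals mark matches to the hypoxia response element cores ACGTG and GCGTG on either strand (read on the other strand as CACGT and CACGC), motifs that do not overlap each other here. The windows are chr10:59323046-59323295 (plus strand) for P4ha1, chr11:54100674-54100923 (plus strand) for P4ha2 and chr7:100285270-100285519 (plus strand) for P4ha3.
P4ha1: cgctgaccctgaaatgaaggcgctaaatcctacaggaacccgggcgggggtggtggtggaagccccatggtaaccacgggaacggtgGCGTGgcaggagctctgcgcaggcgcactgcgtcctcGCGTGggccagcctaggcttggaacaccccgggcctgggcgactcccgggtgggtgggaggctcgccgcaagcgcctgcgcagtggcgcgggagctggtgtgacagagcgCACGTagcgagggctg
P4ha2: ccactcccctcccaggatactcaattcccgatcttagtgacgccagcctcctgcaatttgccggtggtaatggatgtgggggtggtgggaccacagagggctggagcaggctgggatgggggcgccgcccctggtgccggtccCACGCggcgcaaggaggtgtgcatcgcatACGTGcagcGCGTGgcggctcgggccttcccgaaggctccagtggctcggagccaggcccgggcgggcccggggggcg
P4ha3: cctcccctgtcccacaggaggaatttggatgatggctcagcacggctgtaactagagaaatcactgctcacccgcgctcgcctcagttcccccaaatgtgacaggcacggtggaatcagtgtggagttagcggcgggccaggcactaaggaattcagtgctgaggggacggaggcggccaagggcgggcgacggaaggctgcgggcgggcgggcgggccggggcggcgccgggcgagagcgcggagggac
The P4ha1 and P4ha2 windows each held 3 such matches and the P4ha3 window held 0. Among all 32851 promoter windows of this length, 38.6% held at least 1 of these cores, so a match is common and is given as a description only. The share of windows with 3 matches was not counted. Of the 10 genes, 8 had a promoter entry, and 6 of these 8 held a core. Plod2 and P3h2 had no entry.

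The arrays were alike in overall level, with medians between 7.66 and 7.74 and pairwise correlations across genes of at least 0.995. The stellate genes Lrat (retinol esterification) and Des (desmin) stood at 14.04 and 12.79 in reverted cells and at 14.05 and 12.81 in quiescent cells. All 14 measured stellate markers nevertheless had a lower mean in reverted cells (median log2 change -0.05), 1 of them (Gfap) was called down, and the list mean ran from 13.32 to 13.39 in reverted and from 13.41 to 13.46 in quiescent arrays, with no overlap. The Kupffer cell marker Clec4f, the endothelial marker Pecam1 and the bile duct marker Krt19 lay between 6.70 and 7.11 in reverted and between 6.78 and 7.08 in quiescent cells. Over the whole lists, 14 of 19 endothelial markers had a higher mean in reverted cells (median log2 change 0.12, highest 0.50) and 5 of 19 Kupffer cell and myeloid markers did (median -0.04, highest 0.59 for Lyz2), with 0 called in either list and overlapping list means. Hepatocyte transcripts were present in both groups: the mean of 26 measured hepatocyte markers ran from 8.66 to 9.10 in reverted and from 8.12 to 8.91 in quiescent arrays, and 25 of the 26 had a higher mean in reverted cells. Their median log2 change was 0.43, and 16 of the 26 had an unadjusted limma p under 0.05, against 16.0% of all genes. After adjustment 2 of them (Trf and Hp) were called, 1 up and 1 down, where 0.712% of all genes were. The albumin gene Alb stood at 12.41 ± 0.24 in reverted and 11.86 ± 0.75 in quiescent cells (SD, n = 4 each, adjusted p = 0.417), with quiescent array 4 lowest at 10.84. The part of these marker differences in the results that follow was not tested, beyond the hepatocyte marker mean as covariate. Quiescent array 4 correlated as closely with reverted arrays 2 and 3 (both 0.9972) as with any array of its own group, and had the lowest array weight (0.584). For P3h2, P4ha2, Plod2 and Hk2 a result without it is also given.

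Transcripts for collagen hydroxylation, chaperoning and propeptide processing were not shown to differ between reverted and quiescent stellate cells. The size of difference that the 95% intervals left room for varied by gene. In limma with Benjamini-Hochberg adjustment over all 19938 genes, 0 of the 10 genes were called changed at an adjusted p under 0.05, where 0.712% of all genes were. At an unadjusted p under 0.05 there were 2, P3h2 and P4ha3, against 16.0% of all genes. The means were higher in reverted cells for 6 genes, against 46.4% of all genes, and lower for 4, and the log2 changes ran from -0.15 (P4ha2) to 0.45 (P3h2) with a median of 0.04, against a median of -0.01 for all genes. The median absolute log2 change was 0.10, against 0.06 for all genes. The 95% intervals lay within a 1.2-fold change in either direction for 5 genes, all but P4ha1, P4ha2, P4ha3, P3h2 and Serpinh1. They lay within a 1.5-fold change for 8 genes, all but P4ha2 and P3h2, and within a 2-fold change for all 10. A rise of 1.30-fold was called elsewhere in these data (Aldh18a1), so a 1.5-fold bound does not exclude differences of that size. P3h2 and P4ha3 were also the 2 genes in which each reverted array lay above each quiescent array, a pattern seen in 4.64% of all genes. The array values compress differences at both ends of the scale, and Pcolce2 (level percentile 19.3 among the genes) and P4ha3 (38.6) lie low while Pcolce (99.5) and Plod1 (98.5) lie near the top. In bulk RNA, fewer cells carrying a transcript and less of it per cell cannot be told apart.

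**Figure D1:**
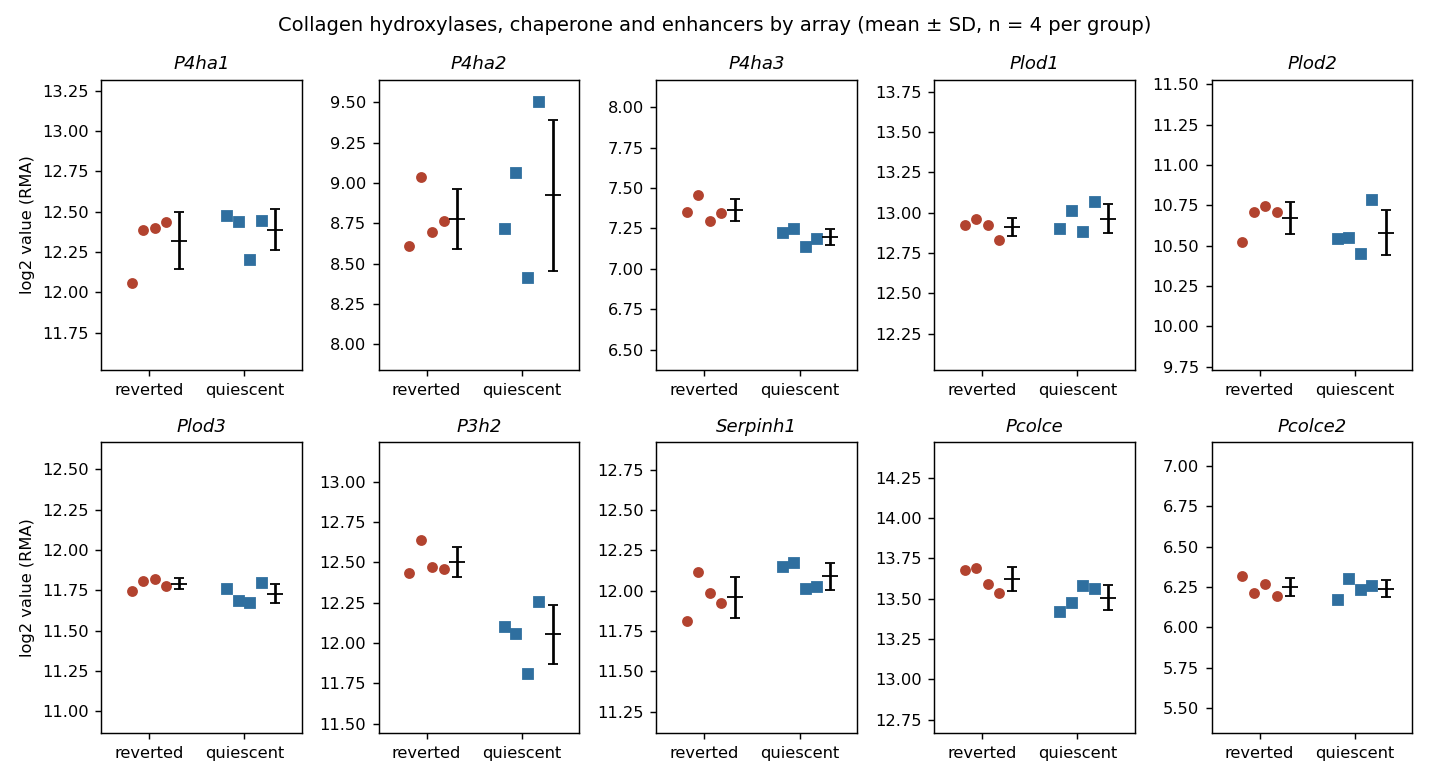
Log2 RMA value of each of the 10 genes in the 4 reverted arrays (circles) and the 4 quiescent arrays (squares), with the group mean and SD as a bar beside the points; every panel spans the same number of log2 units. P3h2 and P4ha3 have all reverted arrays above all quiescent arrays, and the groups overlap in the other 8 genes.

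**Figure D2:**
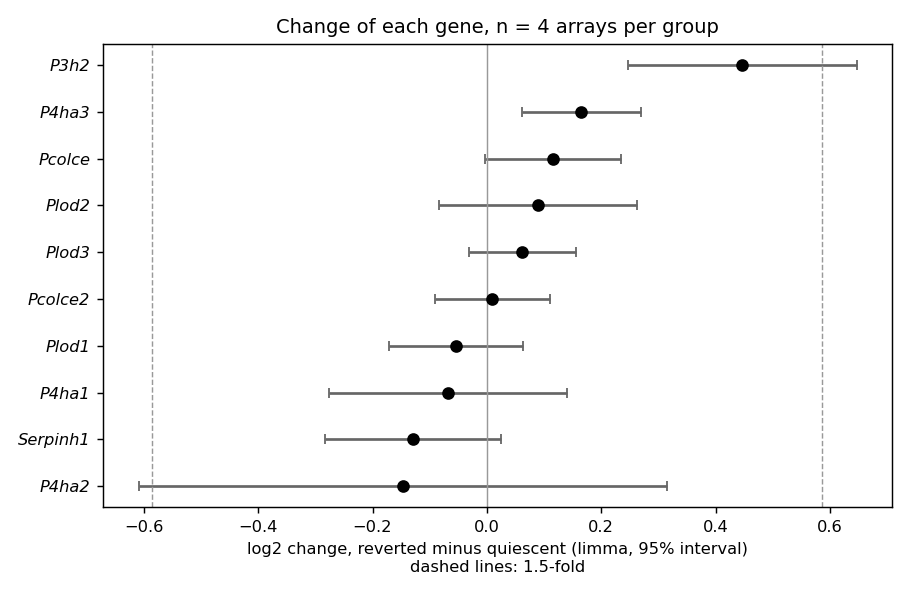
Log2 change of each gene, reverted minus quiescent, as a point with its 95% interval from the limma fit (n = 4 arrays per group); dashed lines mark 1.5-fold. The intervals of P4ha2 and P3h2 reach past a dashed line, and those of the other 8 genes do not.

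P3h2 had the largest difference of the 10. It encodes prolyl 3-hydroxylase 2, a dioxygenase of the endoplasmic reticulum that hydroxylates the 3-position of proline, mainly in the type IV collagen of basement membranes. Its log2 values were 12.43, 12.64, 12.47 and 12.46 in reverted arrays and 12.10, 12.06, 11.81 and 12.25 in quiescent arrays. The lowest reverted array stood above the highest quiescent array, which was quiescent array 4, and the spread was wider in the quiescent group. The means were 12.50 ± 0.09 in reverted and 12.05 ± 0.18 in quiescent cells (SD, n = 4 each), a 1.36-fold difference with a log2 change of 0.45 (SE 0.09, 95% interval 0.25 to 0.65). Its adjusted p of 0.0611 missed the threshold in limma. It fell on the other side in 5 of 19 alternative settings, of which the smallest adjusted p was 0.0309 with array weights, and without quiescent array 4 the log2 change was 0.51 (adjusted p = 0.0343). The adjusted p over all 19 alternatives ran from 0.0309 to 0.189 and the log2 change from 0.34 to 0.58.

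Values of other gene groups are set beside those of P3h2. Immediate early genes, which respond to the stress of isolation, had a list mean between 12.60 and 12.69 in reverted and between 12.38 and 12.68 in quiescent arrays, and quiescent array 3 was lowest both in this mean and in P3h2. With that mean as a covariate the log2 change of P3h2 was 0.34 (adjusted p = 0.189), and with the hepatocyte marker mean it was 0.58 (adjusted p = 0.083). The mean of 19 mesothelial and portal fibroblast markers lay between 8.03 and 8.24 in reverted and between 7.92 and 7.997 in quiescent arrays. Of the 19, 2 were called up (Wt1 and Dpt), where 0.712% of all genes were called in either direction. An unadjusted limma p under 0.05 was found in 7 of the 19, against 16.0% of all genes. Even so, 12 of the 19 had a lower mean in reverted cells (median log2 change -0.07). The part of these markers in the P3h2 values was not tested. The type IV collagen genes that encode substrates of P3h2 had log2 changes of 0.23 for Col4a1 (adjusted p = 0.0908) and 0.30 for Col4a2 (adjusted p = 0.0792), and did not pass either, although in both genes each reverted array lay above each quiescent array. Col4a2 passed in 3 of 19 alternatives and Col4a1 in 2 of 19, with array weights (0.0338 and 0.0384) and without reverted array 1 (0.0396 and 0.0327) among them for both. P3h1, a prolyl 3-hydroxylase of fibrillar collagens, had a log2 change of 0.10 (adjusted p = 0.349), and for Crtap, its partner in that complex, it was 0.07 (adjusted p = 0.363).

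**Figure D3:**
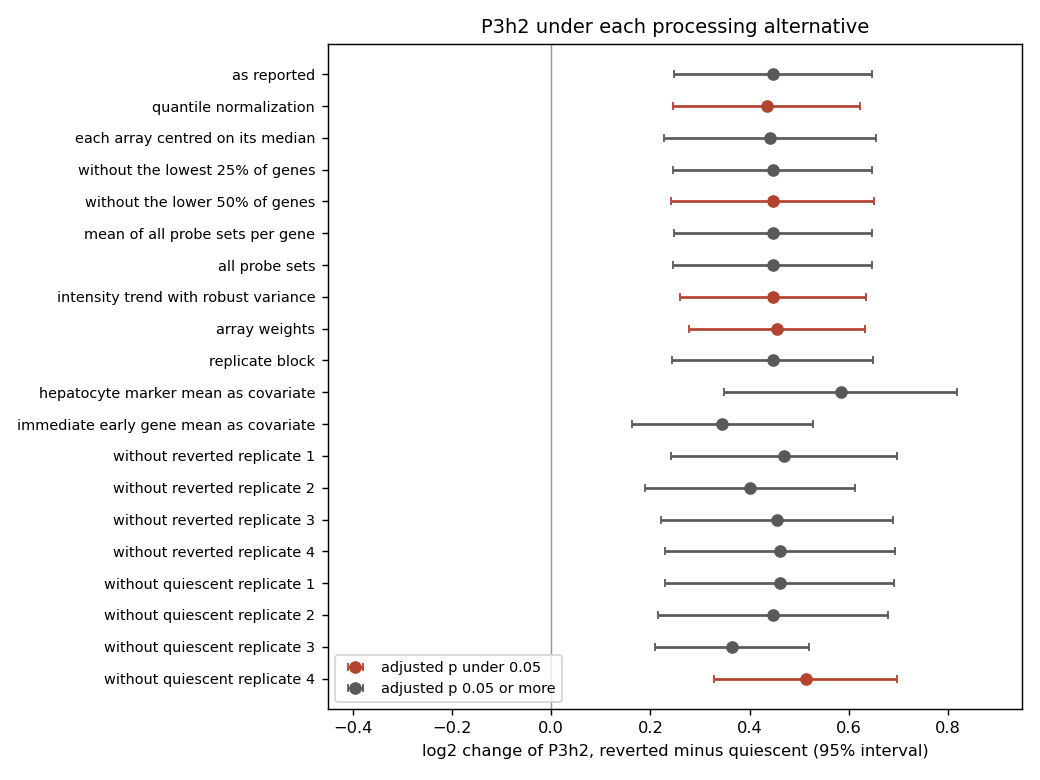
Log2 change of P3h2, reverted minus quiescent, with its 95% interval, as reported and under each of 19 alternative settings; colour marks whether the adjusted p was under 0.05. All intervals lie above 0, and the adjusted p is under 0.05 in 5 of the 19 alternatives.

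The genes whose values ran most like those of P3h2 over the 8 arrays were Usp45 (Pearson r = 0.972), Polk (0.966), Khdc4 (0.965), Ercc6 (0.961) and Il6ra (0.957). Their r after subtraction of group means was between 0.82 and 0.93. These are the highest values among all other genes measured, over only 8 arrays, which share 2 groups and any difference in RNA quality, and they are a description. Il6ra, the interleukin 6 receptor, was the one of the 5 that was called, with a log2 change of 0.51 (adjusted p = 0.0162), and it lost its call in 6 of the alternatives.

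None of the prolyl 4-hydroxylase alpha subunits was called changed, and their values did not all run the same way. P4ha1, the most widely used catalytic subunit, had log2 values of 12.06, 12.39, 12.40 and 12.43 in reverted arrays and 12.47, 12.44, 12.20 and 12.44 in quiescent arrays. Apart from a low reverted array 1 and a low quiescent array 3, the remaining 6 arrays lay within 12.39 to 12.47, and the groups overlapped. The log2 change was -0.07 (SE 0.09, 95% interval -0.28 to 0.14, adjusted p = 0.73). It was 0.02 without reverted array 1 and -0.13 without quiescent array 3. P4ha2, the subunit of the isoenzyme typical of chondrocytes and endothelium, had the widest spread of the 10, with log2 values of 8.61, 9.04, 8.70 and 8.76 in reverted arrays against 8.72, 9.06, 8.41 and 9.50 in quiescent arrays. The quiescent arrays alone spanned 1.09 log2 units, and their highest value was again that of quiescent array 4. Its log2 change was -0.15 (SE 0.21, 95% interval -0.61 to 0.31, adjusted p = 0.738). The change was 0.05 without quiescent array 4 and -0.32 without quiescent array 3, the lowest of its group. For P4ha2 a fall of up to 1.5-fold could thus not be told from no change.

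P4ha3, an alpha subunit of low abundance in most adult tissues, ran the other way. Its log2 values were 7.35, 7.46, 7.29 and 7.35 in reverted arrays and 7.22, 7.25, 7.13 and 7.19 in quiescent arrays. The groups did not overlap, but the gap between the lowest reverted and the highest quiescent array was small beside the spread within the reverted group. The log2 change was 0.17 (SE 0.05, 95% interval 0.06 to 0.27) or 1.12-fold, with an adjusted p of 0.154, and it stayed between 0.13 and 0.20 in 18 alternatives with adjusted p from 0.0862 to 0.377. P4hb, the disulfide isomerase that is the common beta subunit, had a mean of 12.78 in both groups, and its SD was 0.03 in each (log2 change 0.00, SE 0.04, adjusted p = 0.997).

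The group means of the lysyl hydroxylases differed by at most 1.06-fold. That is an estimate and not a bound, since the 95% interval of each gene reached further. Plod1, whose enzyme acts on the helical part of collagens, had log2 values of 12.92, 12.96, 12.93 and 12.83 in reverted arrays and 12.90, 13.01, 12.88 and 13.07 in quiescent arrays, and its log2 change was -0.05 (adjusted p = 0.621, SE 0.05). Plod2, the telopeptide lysyl hydroxylase, had log2 values of 10.52, 10.71, 10.74 and 10.71 in reverted arrays and 10.54, 10.55, 10.45 and 10.78 in quiescent arrays. In Plod2, 3 reverted arrays stood above 3 quiescent arrays, while reverted array 1 and quiescent array 4 crossed over, and the log2 change was 0.09 (SE 0.08, 95% interval -0.08 to 0.26, adjusted p = 0.577). Without quiescent array 4 the log2 change of Plod2 was 0.16, and its adjusted p was 0.184. Plod3, which also glycosylates the hydroxylysine it makes, had log2 values of 11.75, 11.81, 11.82 and 11.78 in reverted arrays and 11.75, 11.68, 11.67 and 11.80 in quiescent arrays. The groups overlapped through quiescent arrays 1 and 4, and the log2 change was 0.06 (adjusted p = 0.476, SE 0.04).

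Serpinh1 ran lower in reverted cells, short of the threshold. Its log2 values were 11.81, 12.12, 11.99 and 11.92 in reverted arrays and 12.15, 12.17, 12.01 and 12.02 in quiescent arrays. Only reverted array 2 reached the range of the quiescent arrays. The means were 11.96 ± 0.13 in reverted and 12.09 ± 0.08 in quiescent cells (SD, n = 4 each), a log2 change of -0.13 (SE 0.07, 95% interval -0.28 to 0.02, adjusted p = 0.378). In each of the 19 alternatives the change stayed below 0, between -0.18 and -0.08, and the adjusted p was never under 0.253. Another collagen-folding protein of the endoplasmic reticulum also did not pass: the peptidyl-prolyl isomerase gene Ppib stood at -0.02 on the log2 scale (adjusted p = 0.78).

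Of the C-proteinase enhancers, Pcolce ran higher in reverted cells without passing. Pcolce, a secreted glycoprotein with no protease activity of its own, had log2 values of 13.68, 13.69, 13.59 and 13.53 in reverted arrays and 13.42, 13.48, 13.58 and 13.56 in quiescent arrays. The groups overlapped in reverted array 4 and quiescent arrays 3 and 4, and the log2 change was 0.12 (SE 0.05, 95% interval 0.00 to 0.24, adjusted p = 0.323). Pcolce2, its paralogue, lay near the bottom of the scale at 6.32, 6.22, 6.27 and 6.19 in reverted arrays and 6.17, 6.30, 6.23 and 6.26 in quiescent arrays. These ranges were nearly the same (log2 change 0.01, SE 0.04, adjusted p = 0.931), and with no background level at hand a change of Pcolce2 may be understated. Bmp1, the C-proteinase that Pcolce assists, had means of 11.93 ± 0.04 in reverted and 11.90 ± 0.05 in quiescent cells (SD, n = 4 each, log2 change 0.02, adjusted p = 0.787).

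Whether paralogues changed unequally was tested on the difference of their log2 values within each array, which cancels any shift of a whole array. Over the 7 pairs within the P4ha, Plod and Pcolce families, 0 passed an exact 2-sided permutation test of 4 against 4 arrays after Benjamini-Hochberg adjustment (lowest adjusted p = 0.2), where the smallest unadjusted p the design allows is 0.0286. At least 5 of the 7 pairs would have had to reach that p for any to pass, so the adjusted test says little about a single pair. The log2 change of P4ha3 exceeded that of P4ha1 by 0.23, and that of P4ha2 by 0.31 (exact p = 0.0857 and 0.257). Plod3 and Plod2 exceeded Plod1 by 0.12 and 0.14 (exact p = 0.0857 and 0.114), and Pcolce exceeded Pcolce2 by 0.11 (exact p = 0.0857). No pair had its groups fully apart.

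The values of the 10 genes were also set against their fibrillar substrates. Col1a1, which encodes the main chain of type I collagen, differed by 0.32 log2 units (adjusted p = 0.239, SE 0.12), while the values were 0.10 for Col1a2 (adjusted p = 0.447) and -0.03 for Col3a1 (adjusted p = 0.806). After subtraction of the mean of these 3 chains in each array, P3h2 was higher in reverted cells by 0.32, and P4ha2, Serpinh1, P4ha1 and Plod1 had differences of -0.28, -0.26, -0.20 and -0.18. By the exact permutation test 0 of the 10 passed after adjustment over the 10 (lowest adjusted p = 0.286), and the groups overlapped in every gene. At least 6 of the 10 would have had to reach the smallest possible p for any to pass, so this says little about a single gene. Exact unadjusted p-values were 0.0857 for P3h2, 0.314 for P4ha2, 0.143 for Serpinh1, 0.371 for P4ha1 and 0.0571 for Plod1. Pcolce2 had a difference of -0.12, also with an exact p of 0.0571.

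Across the 8 arrays, Serpinh1 and Col1a1 were inversely related, with Pearson r = -0.746 (exact permutation p = 0.0322) and Spearman rho = -0.786 (exact permutation p = 0.0279). The permutations ran across both groups, so opposite group differences (log2 changes of -0.13 for Serpinh1 and 0.32 for Col1a1) enter these values. No r after subtraction of group means was taken against Col1a1. With Benjamini-Hochberg adjustment over the 10 genes set against Col1a1, neither the r nor the rho of Serpinh1 passed (0.191 and 0.279). Without the 2 arrays farthest from the median of Col1a1, reverted array 1 and quiescent array 1, its r was -0.544. Pcolce had r = 0.696 (exact permutation p = 0.052, adjusted 0.191) and rho = 0.548 (exact permutation p = 0.171, adjusted 0.342), and its r without those arrays was 0.01, so that this relation rests on them. The other 8 genes had r between -0.463 and 0.679, with adjusted exact permutation p of at least 0.191. These values depended on the same 2 arrays: without them r was 0.733 for Plod2, 0.743 for Plod3, 0.663 for P3h2 and 0.563 for P4ha1, against 0.327, 0.288, 0.551 and -0.463 with all 8, and for Pcolce2 it was -0.06 against 0.679. With only 6 arrays left, no test was made of these values.

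Among themselves the 10 genes formed 45 pairs, of which 31 had a positive and 14 a negative Pearson r over the 8 arrays, with a median r of 0.23. Of these pairs, 4 had an exact permutation p under 0.05 and 0 passed after adjustment over the 45 (lowest adjusted p = 0.111). The closest were P4ha3 with P3h2 (r = 0.893, exact p = 0.0036, rho = 0.81, exact p = 0.0218) and Plod2 with Plod3 (r = 0.869, exact p = 0.00523, rho = 0.857, exact p = 0.0107). After subtraction of group means r was 0.59 for P4ha3 with P3h2 and 0.86 for Plod2 with Plod3, and without the 2 arrays farthest from the median of the gene named before the other it was 0.732 and 0.814 on the deposited values.

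The rest of the collagen assembly line gave 2 calls in 77 measured genes of 6 lists, where 0.712% of all genes were called. In the list of other collagen modification and folding genes 0 of 19 were called up and 0 down, with a median log2 change of -0.01. The smallest p belonged to Tmem38b, an endoplasmic reticulum cation channel whose loss impairs collagen modification (log2 change 0.26, adjusted p = 0.181), and to Colgalt2, a collagen galactosyltransferase (log2 change -0.26, adjusted p = 0.234). Of 16 procollagen export genes 0 were called up and 0 down (median 0.03). Klhl12, a ubiquitin ligase adaptor for large COPII carriers, stood at 0.21 (adjusted p = 0.255) and the retrieval receptor Kdelr3 at 0.25 (adjusted p = 0.354). Of 10 propeptide removal genes 0 were called up and 0 down (median 0.00). Adamts3, a procollagen N-proteinase, stood at 0.32 (adjusted p = 0.196) and the proprotein convertase Furin at -0.06 (adjusted p = 0.44). Of 16 collagen chains 0 were called up and 0 down (median 0.09), and 9 had an unadjusted limma p under 0.05, against 16.0% of all genes. The mean was higher in reverted cells for 10 of the chains, against 46.4% of all genes, and lower for 6. Their list mean lay between 10.49 and 10.54 in reverted and between 10.35 and 10.43 in quiescent arrays, with no overlap. In 4 of the 16 chains each reverted array lay above each quiescent array, against 4.64% of all genes. In 2 each lay below, for which the share of all genes was not counted.

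The calls were in cross-linking and in proline supply. Lox, the extracellular oxidase that cross-links the lysines and hydroxylysines of collagen, had log2 values of 7.60, 7.24, 7.66 and 7.62 in reverted arrays and 6.44, 6.47, 6.28 and 6.73 in quiescent arrays. The groups were far apart, and Lox was 2.07-fold higher in reverted cells (log2 change 1.05, SE 0.11, adjusted p = 0.00519). It was the only call among 4 measured cross-linking oxidases, and its adjusted p was 0.0582, at a log2 change of 1.07, once the mean of the hepatocyte markers entered as a covariate. Aldh18a1, the mitochondrial enzyme that starts proline synthesis from glutamate, had log2 values of 10.69, 10.51, 10.65 and 10.65 in reverted arrays and 10.14, 10.29, 10.34 and 10.23 in quiescent arrays. It rose 1.30-fold (log2 change 0.38, SE 0.06, adjusted p = 0.0217) as the only call among 12 measured genes of proline and ascorbate supply (median 0.04). Its call was lost without reverted array 1, 3 or 4 or quiescent array 1 (adjusted p from 0.0526 to 0.0908) and when the hepatocyte mean (0.119) or the immediate early gene mean (0.0609) was a covariate.

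**Figure D4:**
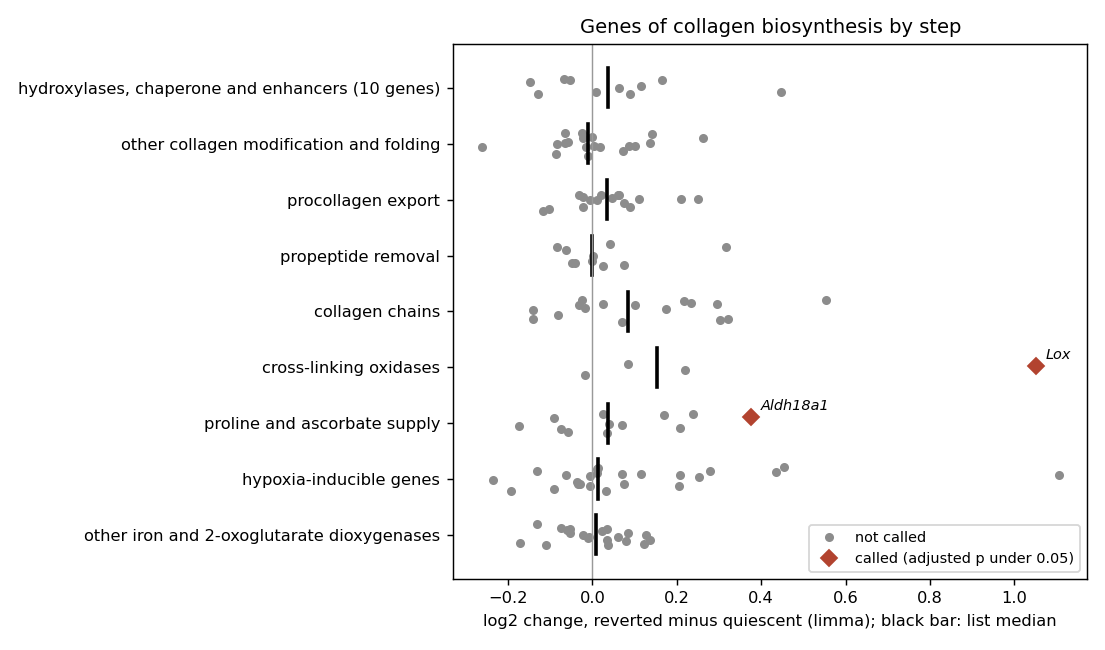
Log2 change, reverted minus quiescent, of each measured gene (points) in the lists of collagen biosynthesis and in the lists of hypoxia-inducible genes and other dioxygenases; black bars are list medians and diamonds mark genes with an adjusted p under 0.05. All list medians lie between -0.01 and 0.15, and only Lox and Aldh18a1 are diamonds.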

How the data were processed

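The authors deposited log2 values of 35556 probe sets made with RMA, per the submitters' processing notes. Its version and settings, the genome build and any batch are not given in the sources used here. All 8 columns matched the samples by name (0 columns without a sample). Probe sets with 1 gene symbol (21789) were kept, and the one with the highest mean over the arrays stood for its gene, giving 19938 genes with no filter on dim genes. The groups were compared with lmFit and eBayes in limma 3.58.1 (R 4.3.3), 2-sided, with no covariate and Benjamini-Hochberg adjustment over all genes; an adjusted p under 0.05 was a call. Tested on simulated data for this comparison (19938 genes, 200 changed), 47% of genes changed by 0.3 log2 units, 88.5% at 0.58 and 98.5% at 1 were recovered. The false share of calls was 3.1%, 6.8% and 8.8%. The simulated noise was independent between genes and arrays, so differences of whole arrays are not in these shares. Paralogue differences, differences from collagen chains and correlations had exact permutation tests (Python 3.11.15, scipy 1.17.1). The genes and lists were chosen with earlier results of these data known. All 10 genes are named, with 10 partners and substrates, the calls of each list (otherwise the 2 smallest p), the 5 genes most like P3h2 and 6 cell markers. Adamts2, a partner on that list, is not analysed here. Alternatives were normalization, filters on dim genes, probe set choice, variance model, replicate block, covariates and leaving out each array; none was added later. The number of arrays limits the precision.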

Additional observations from a re-analysis of the deposited data

Results flagged for a closer look

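The highest and the lowest array of each group were examined for the 10 genes and for 9 partner and substrate genes, 38 groups of 4 arrays in all. A gap to the nearest array, as a share of the group's range, above Dixon's critical value for 4 arrays marks an array that stands apart, and chance gives such a gap in about 1 in 20 groups (1.9 of 38). It was found in 5. P4ha1 was low in reverted array 1 at 12.06, with the nearest reverted array at 12.39, and in quiescent array 3 at 12.20, with the nearest quiescent array at 12.44. Plod2 was also low in reverted array 1, at 10.52 against 10.71. Bmp1 was low in reverted array 4, at 11.87 against 11.94. Lox was low in reverted array 2, at 7.24 against 7.60, which is still above each quiescent array.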

How the results depend on the processing

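Of the 10 genes, 0 were called as reported, and the count became 1, always P3h2, after quantile normalization (adjusted p = 0.0486), with the lower 50% of genes left out (0.04998), with an intensity trend and robust variance (0.0408) and with array weights (0.0309); with each array left out in turn it ran from 0 to 1, the 1 being without quiescent array 4. The cause was not tested, except that the filter leaves fewer genes to adjust over. The count over all genes was 142 (105 rises and 37 falls) and became 219 after quantile normalization (128 rises and 91 falls), 306 with array weights, 63 with the replicate block, 20 with the hepatocyte and 45 with the immediate early gene covariate, and ran from 54 to 247 with each array left out. Same-numbered arrays deviated together with correlations from -0.15 to 0.08, so the numbers were not taken as pairs; with the replicate block the adjusted p of P3h2 was 0.118, that of Aldh18a1 0.0963 and 0 of the 10 were called. The direction held in all alternatives run for P4ha3, Plod1, Plod2, Plod3, P3h2, Serpinh1 and Pcolce. It turned, with no call, in 2 of 19 for P4ha1, in 2 of 19 for P4ha2 and in 3 of 17 for Pcolce2. The filters left 9 and 8 of the 10 genes tested, without Pcolce2 and then also without P4ha3.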

Other observations

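Genes that share regulation or chemistry with the hydroxylases also showed no call, where 0.712% of all genes were called. At that share, lists of this length may hold none. Of 24 measured hypoxia-inducible genes 0 were called up and 0 down in limma after adjustment, and the median log2 change was 0.01. An unadjusted limma p under 0.05 was found in 6 of the 24, against 16.0% of all genes. The glycolytic enzyme gene Hk2 differed by 1.10 log2 units (adjusted p = 0.0562, SE 0.21), with values of 8.41, 8.74, 9.31 and 9.40 in reverted arrays and 7.91, 7.64, 7.72 and 8.17 in quiescent arrays, and Ndrg1 had -0.24 (adjusted p = 0.114), with each reverted array below each quiescent array. Hk2 passed in 5 of its alternatives, among them array weights (adjusted p = 0.0236) and leaving out quiescent array 4 (0.0484). Of 20 other dioxygenases that use iron and 2-oxoglutarate, as the collagen hydroxylases do, 0 were called up and 0 down. Their log2 changes ran from -0.17 to 0.14. Of these 20, 1 had an unadjusted limma p under 0.05, against 16.0% of all genes. The RNA demethylase gene Fto had 0.14 (adjusted p = 0.276) and the HIF prolyl hydroxylase gene Egln2 had -0.11 (adjusted p = 0.338).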
